A study of Mus musculus with 24 samples.

Results

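Right ventricles loaded by PSPI surgery and taken at month 3 (4 samples) were compared with those taken at month 1 (5 samples), 9 of the 24 mouse samples measured. The members were taken by their titles, as all samples titled month 3 and all titled month 1 of the PSPI group. That choice was made with earlier results of these data known. PSPI is, per the labels, surgery that puts both a pressure and a volume overload on the right ventricle. The other samples were 10 sham-operated and 5 PSPI ventricles of month 2. They entered the estimate of the spread, the choice of probes, the scaling between arrays and the levels given for context. Every sample is labelled as heart, right ventricle, with the strain entry M/FVB/10-12, and none carries a transgene or drug treatment in its labels. The comparison thus asks how the loaded ventricle differed between a later and an earlier time after the same surgery, and it holds no sham arm of matched age. The labels do not state whether each sample is a different animal. The p-values therefore speak only of the variation among these arrays, part or all of which may be technical.

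The right ventricle normally pumps against the low resistance of the lung circulation. Under chronic load its muscle cells enlarge and turn on genes of the fetal heart, such as those of natriuretic peptides and of the slow myosin heavy chain, while genes of fatty acid oxidation and of mitochondrial respiration, the main sources of ATP in heart muscle, are often lowered when load leads towards failure. Calcium released from the sarcoplasmic reticulum starts each contraction, and the proteins that release it and take it back are altered in many forms of heart failure. Interferons are cytokines that switch on a shared set of antiviral genes through STAT and IRF factors, also in tissue without infection.

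Levels below are scaled log2 signals, that is the log2 of a probe's processed signal minus the 75th percentile of its array, so levels of different genes cannot be set against each other. Differences are month 3 minus month 1 on that log2 scale, with the standard error and the adjusted p-value of limma's moderated test over 12338 genes and a threshold of 0.05. The arrays lay on 3 slides, and the slide is tied to the month. Month 3 sample 1 and month 1 samples 2, 3 and 4 were on slide 2, month 3 samples 2, 3 and 4 and month 1 sample 5 on slide 3, and month 1 sample 1 on slide 1. A difference within slide 2 therefore rests on 1 month 3 sample, and a difference within slide 3 on 1 month 1 sample. Between 36.16% and 56.11% of probes were well above background on the 9 arrays, with month 3 sample 4 at the upper end and month 1 sample 5 next at 51.15%. The ranges of markers in bulk tissue cannot tell fewer cells of a type from less RNA per cell.

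The month 1 samples were not alike. Myh7, the slow myosin heavy chain, stood at 5.39, 5.08, 5.0 and 5.60 in month 3 samples 1 to 4, against 5.74, 2.48, 2.52, 2.03 and 5.11 in month 1 samples 1 to 5. Month 1 samples 1 and 5 thus lay at the level of month 3, and samples 2, 3 and 4 far below it. Nppb, which encodes the natriuretic peptide BNP, stood at 4.22, 3.73, 3.47 and 3.75 in month 3 samples 1 to 4, against 4.19, 1.60, 0.23, -1.49 and 3.73 in month 1 samples 1 to 5. Gdf15, a stress-induced cytokine, stood at 1.64, -1.29, -0.91 and 1.27 in month 3 samples 1 to 4, against 1.02, -4.73, -4.63, -4.87 and 1.13 in month 1 samples 1 to 5. The same 3 month 1 samples were the low ones for all 3 genes. The shams were divided too, with 6 at 1.61 to 2.15 and 4 at 4.72 to 5.90 for Myh7, so that neither level belonged to sham or PSPI alone. The 3 low month 1 samples all lay on slide 2. Month 1 samples 1 and 5, on different slides, nearly coincided, with an SD of their differences over genes of 0.2546. That SD was 0.3136 for month 1 samples 3 and 4 and 0.3321 for month 3 samples 2 and 3, while month 1 sample 1 and month 2 sample 3, of different groups, reached 0.2924. The comparison was therefore also made without month 1 samples 1 and 5, and without month 1 samples 2, 3 and 4, both added after the data were seen. Its values are given for the main lists and for many of the genes below.

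**Figure D1:**
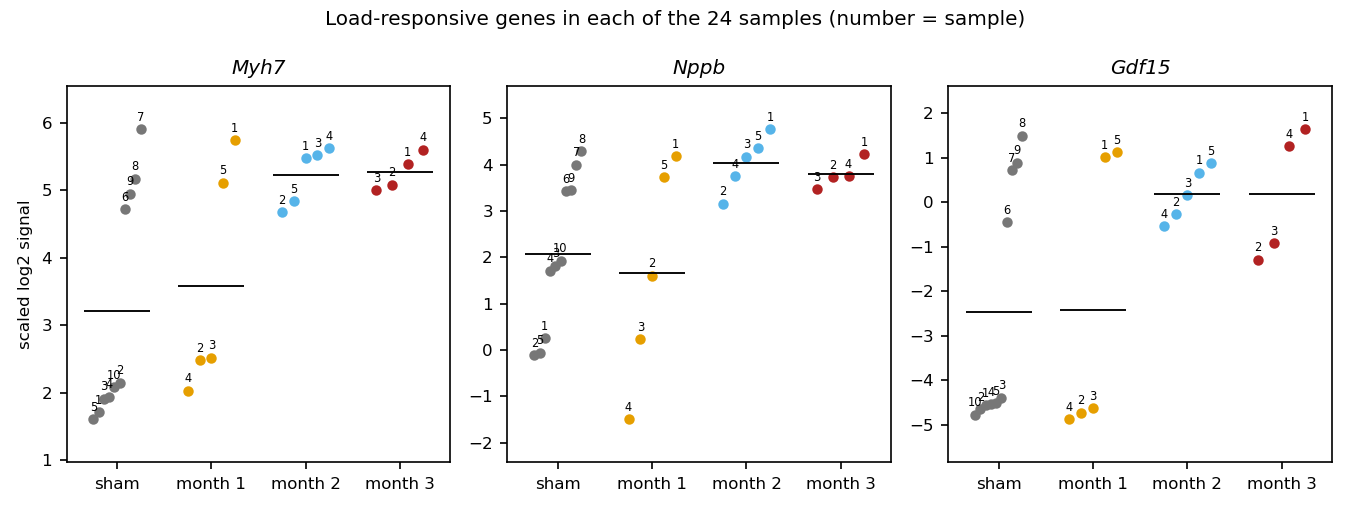
Scaled log2 signal of Myh7, Nppb and Gdf15 in each of the 24 samples by group, from sham to month 3; points are samples with their number and lines are group means. Month 1 samples 1 and 5 lie beside the month 3 samples for Myh7 and Nppb, and month 1 samples 2, 3 and 4 lie below them.

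Of the 12338 genes tested, 3561 differed between month 3 and month 1 (28.9%). Of these, 1459 rose (11.8% of genes) and 2102 fell (17.0%). At least 2-fold changes numbered 483 rises (3.91%) and 230 falls (1.86%). The levels of all 4 month 3 samples lay above those of all 5 month 1 samples for 866 genes (7.02%) and below them for 1158 genes (9.39%). With slide as a block, 863 rose (6.99%) and 1328 fell (10.8%). Within slide 2, 648 genes rose (5.25%) and 542 fell (4.39%), and within slide 3, 75 rose (0.608%) and 9 fell (0.0729%). Without month 1 samples 1 and 5, 1766 rose (14.3%) and 2227 fell (18.0%). Without samples 2, 3 and 4, 412 rose (3.34%) and 473 fell (3.83%). Without month 3 sample 1, which lay nearest to month 1, the changes of at least 2-fold numbered 1072 in place of 713. With the near-coinciding arrays averaged, which leaves 3 samples in each month, 536 genes rose (4.34%) and 582 fell (4.72%). The genes that passed in the same direction with all samples and in both of these reduced comparisons were 354 rises (2.87%) and 367 falls (2.97%). The direction of the overall split depended on the scaling. Calls were 41.0% rises here, 22.7% with the percentile taken over all probes, 30.3% after quantile normalization and 52.8% after normexp background correction. The median over all genes was -0.05, and it moved to -0.18, -0.11 and 0.04 under those alternatives. The counts for gene lists below are read against these shares, and a list near them shows nothing of its own.

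**Figure D2:**
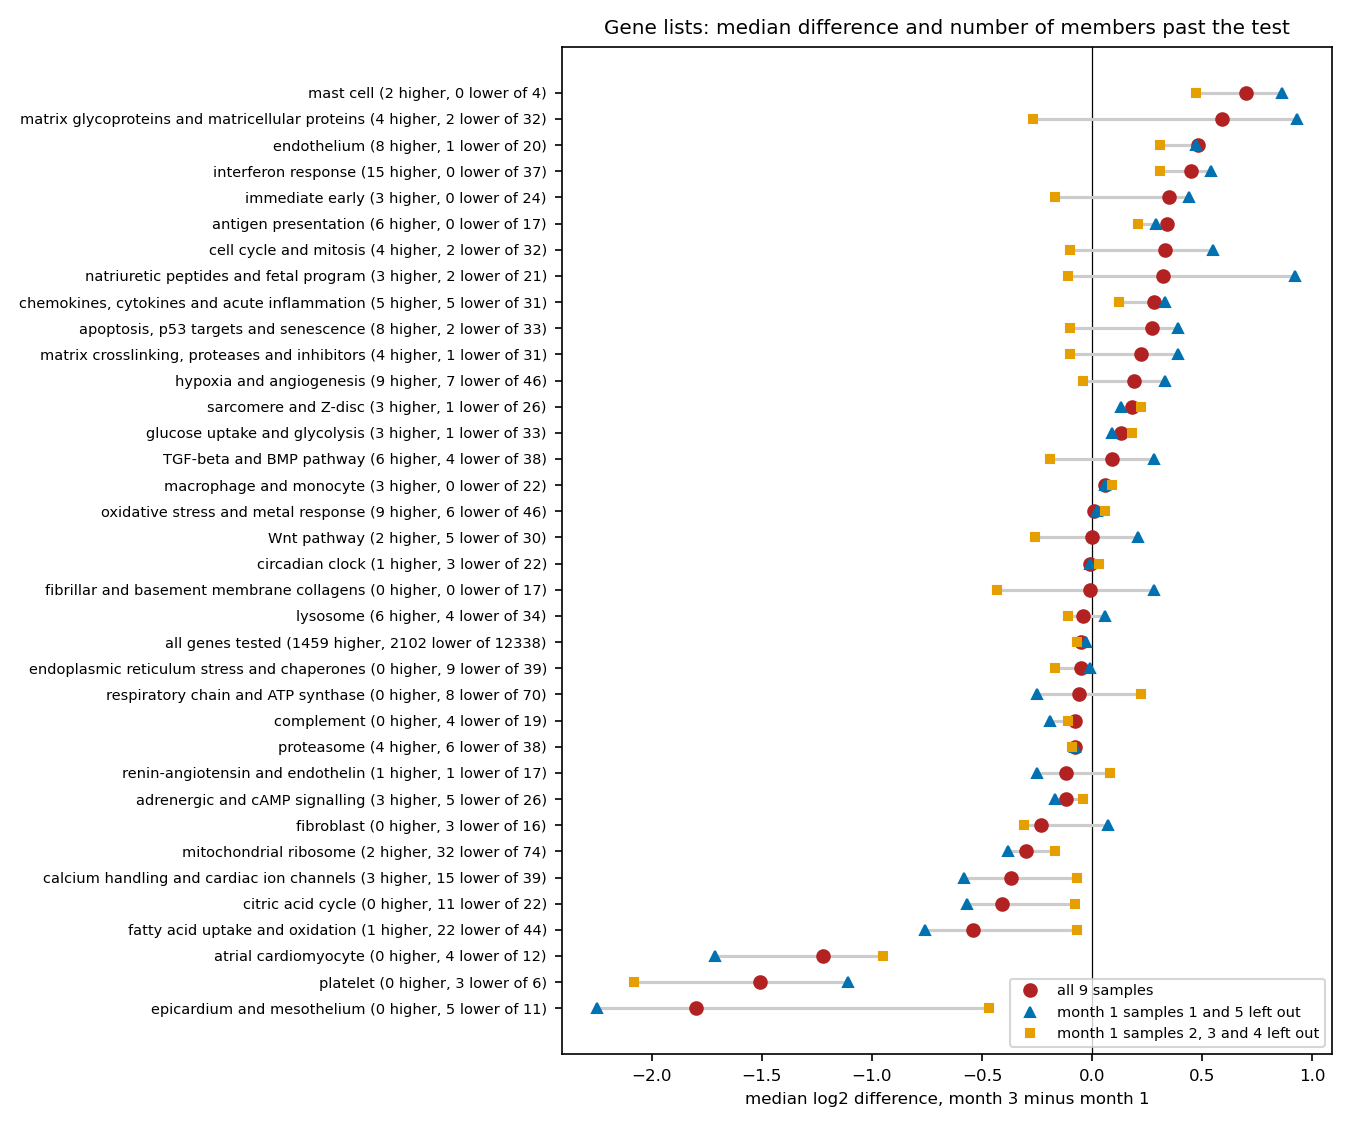
Median log2 difference (month 3 minus month 1) over the measured members of each gene list, with the number of members that passed the test in each direction; red circles use all 9 samples, blue triangles leave out month 1 samples 1 and 5, and orange squares leave out month 1 samples 2, 3 and 4. The interferon, antigen presentation, endothelium and mast cell medians lie above 0 and the mitochondrial ribosome median below 0 in all 3. Without month 1 samples 2, 3 and 4 the fatty acid and citric acid cycle medians, at -0.07 and -0.08, lie at that of all genes, -0.07, while those of the fetal program and matrix glycoproteins cross 0.

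Fatty acid, citric acid cycle and mitochondrial ribosome genes held more falls than all genes with all 9 samples. Of 44 measured genes of fatty acid uptake and oxidation, 22 fell (50%, against 17.0% of all genes) and 1 rose, with a median difference of -0.54, against -0.05 over all genes. Of 22 genes of the citric acid cycle, 11 fell and none rose, with a median of -0.41. In that list 13 fell with a median of -0.57 without month 1 samples 1 and 5, and 2 fell with a median of -0.08 without samples 2, 3 and 4, where the median of all genes was -0.07. Its median was -0.66 within slide 2 and 0.05 within slide 3. Of 74 genes of the mitochondrial ribosome, which makes the proteins encoded in mitochondrial DNA, 32 fell and 2 rose, with a median of -0.30, and 44 fell without month 1 samples 1 and 5 and 7 without samples 2, 3 and 4. The respiratory chain and ATP synthase differed from these, since 8 of 70 subunit genes fell (11.4%) and none rose, with a median of -0.06. Without month 3 sample 4 the falls were 7 in the citric acid cycle and 4 in the respiratory chain. With the near-coinciding arrays averaged the falls were 11 of the fatty acid genes, 6 of the citric acid cycle, 12 of the mitochondrial ribosome and 4 of the respiratory chain, against 4.72% of all genes.

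Suclg2, the GTP-forming beta subunit of succinyl-CoA ligase in the citric acid cycle (probe at chr6:95424712-95424771 in build mm9), stood at -1.24, -1.84, -1.70 and -2.09 in month 3 samples 1 to 4, against -0.89, -0.21, -0.42, -0.41 and -0.60 in month 1 samples 1 to 5. All 4 month 3 samples lay below all 5 month 1 samples, and month 3 sample 1 was the nearest to them. The difference was -1.21 ± 0.16 (SE, adjusted p = 2.21e-05), with -0.89 within slide 2 and -1.27 within slide 3. It was -1.37 (adjusted p = 1.95e-05) without month 1 samples 1 and 5 and -0.97 (adjusted p = 0.00945) without samples 2, 3 and 4. Dld, the lipoamide dehydrogenase subunit shared by the pyruvate and 2-oxoglutarate dehydrogenase complexes, stood at 0.90, 0.78, 0.82 and -0.01 in month 3 samples 1 to 4, against 1.24, 1.5, 1.43, 1.69 and 1.29 in month 1 samples 1 to 5. The groups did not overlap, and month 3 sample 4 was far below the other 3 of its group. The difference was -0.80 ± 0.14 (SE, adjusted p = 0.000231), and another probe of Dld gave -1.10. Idh3b, a subunit of the mitochondrial isocitrate dehydrogenase, differed by -0.73 ± 0.16 (SE, adjusted p = 0.00163), also without overlap, but by -0.36 (adjusted p = 0.189) without month 1 samples 2, 3 and 4. Pdha1, which encodes the E1 alpha subunit of pyruvate dehydrogenase and was listed with glycolysis, differed by -0.82 ± 0.16 (SE, adjusted p = 0.000606). It was the 1 gene of 33 in the glucose uptake and glycolysis list that fell, while 3 rose, or 0 without month 1 sample 2, 1 without month 1 sample 4 and 0 with slide as a block or with the near-coinciding arrays averaged. Those 3 were Pfkp, the platelet-type phosphofructokinase (1.25), Slc16a3, a lactate exporter (1.05), and Aldoc, aldolase C (0.93).

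Slc25a20, the carnitine carrier that brings fatty acylcarnitines into mitochondria, stood at -1.74, -2.28, -2.20 and -2.97 in month 3 samples 1 to 4, against -1.58, -1.10, -0.74, -0.70 and -1.43 in month 1 samples 1 to 5. The groups did not overlap, although month 3 sample 1 lay close to month 1 sample 1. The difference was -1.19 ± 0.19 (SE, adjusted p = 0.000117), with -0.89 within slide 2 and -1.06 within slide 3. It was the only fatty acid gene that fell in all 3 comparisons, at -0.79 (adjusted p = 0.0285) without month 1 samples 2, 3 and 4. Etfdh, which hands electrons released in beta-oxidation on to ubiquinone, stood at 2.52, 2.31, 2.45 and 1.98 in month 3 samples 1 to 4, against 2.76, 3.36, 3.29, 3.30 and 2.82 in month 1 samples 1 to 5. Its groups did not overlap, and month 1 samples 1 and 5 were the nearest to month 3. The difference was -0.79 ± 0.15 (SE, adjusted p = 0.000755), and -0.47 (adjusted p = 0.109) without month 1 samples 2, 3 and 4. Among further falls were Ech1 (-1.21), Cpt2, the inner carnitine palmitoyltransferase (-0.89), Hadha (-0.81) and Hadhb (-0.60) of the trifunctional protein, and the acyl-CoA dehydrogenases Acadm (-0.76) and Acadl (-0.66). Ppara, the nuclear receptor that drives many of these genes, differed by -0.50.

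The thioesterase genes Acot1 and Acot2 were divided within month 1 too. Acot1, the cytosolic enzyme, stood at -3.54, -3.54, -3.23 and -3.63 in month 3 samples 1 to 4, against -2.82, 0.49, 0.27, -0.30 and -2.69 in month 1 samples 1 to 5. Month 1 samples 2, 3 and 4 were high and samples 1 and 5 were close to month 3. The difference was -2.48 ± 0.73 (SE, adjusted p = 0.0145), and -0.73 (adjusted p = 0.591) without month 1 samples 2, 3 and 4. Acot2, its mitochondrial relative, stood at -3.45, -3.83, -3.47 and -3.96 in month 3 samples 1 to 4, against -3.01, -1.30, -1.69, -2.11 and -2.78 in month 1 samples 1 to 5, again with samples 2, 3 and 4 the highest. The difference was -1.5 ± 0.28 (SE, adjusted p = 0.000456), and -0.78 (adjusted p = 0.0705) without those samples. Acot genes lie in a cluster of close relatives, so their probes may share signal. Without month 1 samples 2, 3 and 4 the median of the fatty acid list was -0.07 with 1 fall, and without samples 1 and 5 it was -0.76 with 28 falls. Its medians were -0.77 within slide 2 and -0.05 within slide 3.

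Mitochondrial ribosome genes moved by less each, and 7 of 74 fell in all 3 comparisons, where 2.97% of all genes fell. This was also the longest list, and the citric acid cycle and clock lists each held 2 such falls of 22. Mrps22, of the small subunit, stood at -1.57, -1.60, -1.66 and -1.87 in month 3 samples 1 to 4, against -1.32, -0.97, -1.11, -0.99 and -1.17 in month 1 samples 1 to 5. All month 3 values were below all month 1 values and spanned a narrow range. The difference was -0.56 ± 0.088 (SE, adjusted p = 0.000108), with -0.55 within slide 2 and -0.54 within slide 3. Mrpl37, of the large subunit, stood at -1.89, -2.44, -2.25 and -2.89 in month 3 samples 1 to 4, against -1.73, -1.11, -1.25, -1.17 and -1.70 in month 1 samples 1 to 5, and month 3 sample 1 lay just below month 1 sample 1. The difference was -0.97 ± 0.16 (SE, adjusted p = 0.00019). Mrps17 differed by -0.52 ± 0.079 (SE, adjusted p = 7.61e-05), and its other probe by -0.60. The other 4 that fell in all 3 comparisons were Mrps2 (-0.60), Mrps30 (-0.47), Mrpl32 (-0.47) and Mrpl34 (-0.39). The 2 that rose were Mrpl20 (0.43) and Mrps18b (0.28). The list's median was -0.30 within slide 2 and -0.19 within slide 3.

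Among respiratory chain subunits, Ndufs8 of complex I stood at 1.5, 1.67, 1.45 and 0.95 in month 3 samples 1 to 4, against 2.12, 2.10, 2.15, 2.22 and 1.87 in month 1 samples 1 to 5. Month 3 lay below month 1 throughout, and the difference was -0.70 ± 0.12 (SE, adjusted p = 0.000228), with -0.65 within slide 2 and -0.51 within slide 3. Ndufa10, also of complex I, differed by -0.76 ± 0.14 (SE, adjusted p = 0.000537) without overlap. Further subunits of complex I that fell were Ndufb6 (-0.63), Ndufs1 (-0.45) and Ndufc2 (-0.42). Cox7c (-0.48) of complex IV and Atp5pb (-0.48) of the ATP synthase fell too. The list as a whole turned with the slide, since its median was -0.58 within slide 2 and 0.49 within slide 3. Hspe1 and Hspd1, the mitochondrial chaperonins Hsp10 and Hsp60, differed by -0.56 ± 0.089 (SE, adjusted p = 0.000121) and -0.63 ± 0.15 (SE, adjusted p = 0.00327). For Hspe1 the other probes gave -0.50 and -0.16. Prdx3, the mitochondrial peroxiredoxin, differed by -0.51 ± 0.088 (SE, adjusted p = 0.000249). In the list of chaperones and endoplasmic reticulum stress 9 of 39 genes fell and none rose, with a median of -0.05 equal to that over all genes. The falls were 5 without month 3 sample 2, 4 without month 3 sample 3, 6 without month 1 sample 1 or 4, and 1 with the near-coinciding arrays averaged, and within slide 2 there were 3 rises and 0 falls.

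**Figure D3:**
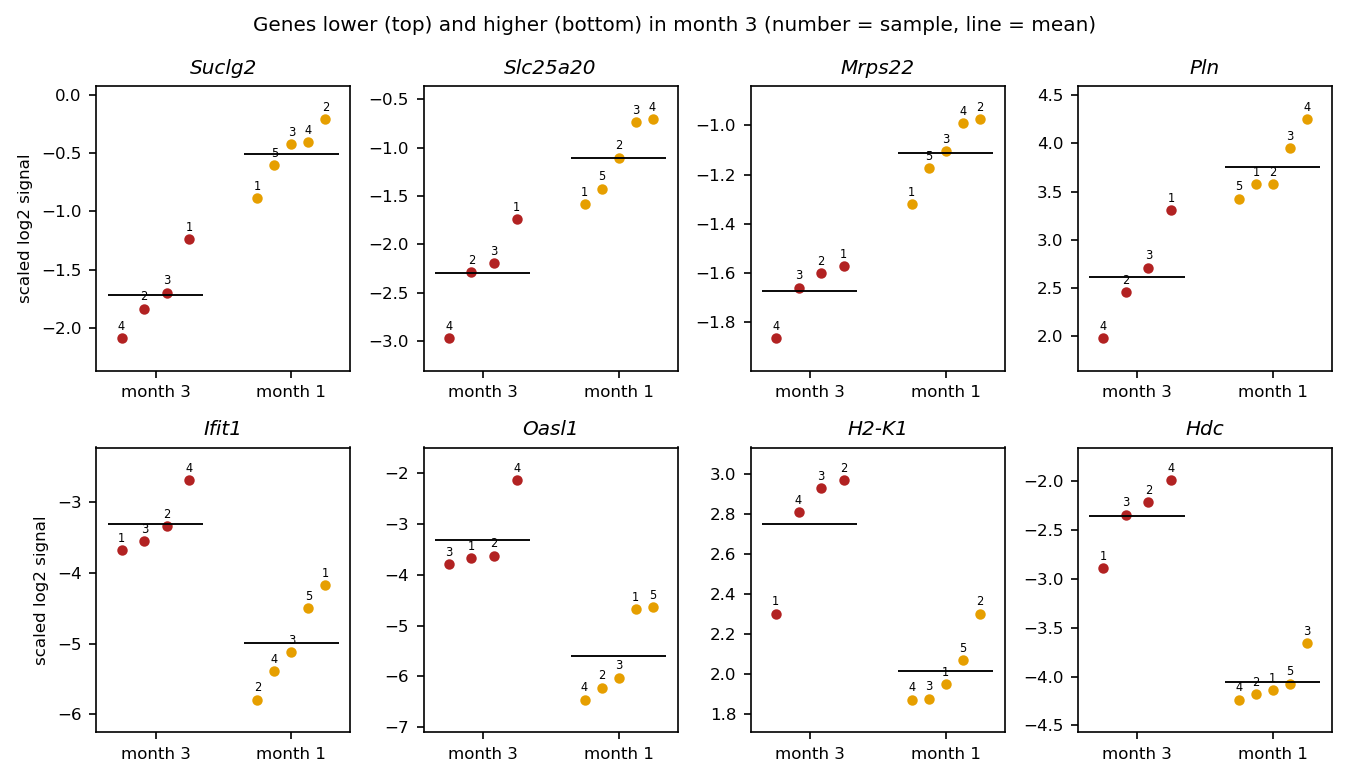
Scaled log2 signal of 4 genes that were lower in month 3 (top) and 4 that were higher (bottom); month 3 samples in red on the left, month 1 samples in orange on the right, points are samples with their number and lines are group means. The groups do not overlap except for H2-K1, where the lowest month 3 sample and the highest month 1 sample both stand at 2.30.

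Genes of calcium handling and of cardiac ion channels were lower in month 3 as well, with 15 of 39 falls (38.5%, against 17.0%), 3 rises and a median of -0.37. The falls include that of the atrial gene Sln, described below. Pln, which encodes phospholamban, the inhibitor of the sarcoplasmic reticulum calcium pump, stood at 3.31, 2.45, 2.71 and 1.98 in month 3 samples 1 to 4, against 3.57, 3.58, 3.95, 4.25 and 3.43 in month 1 samples 1 to 5. All month 3 samples lay below all month 1 samples, with sample 1 the nearest. The difference was -1.14 ± 0.19 (SE, adjusted p = 0.000219), with -0.62 within slide 2 and -1.04 within slide 3, and it was -0.89 (adjusted p = 0.0275) without month 1 samples 2, 3 and 4. Trdn, which encodes triadin of the calcium release complex, stood at 0.82, 0.26, 0.24 and 0.28 in month 3 samples 1 to 4, against 1.86, 1.87, 1.92 and 0.99 in month 1 samples 2 to 5. Its spot on month 1 sample 1 lay in a damaged area and was left out of the fit. The groups did not overlap, with month 3 sample 1 and month 1 sample 5 apart from the rest of their groups and near each other. The difference was -1.26 ± 0.23 (SE, adjusted p = 0.000422), while the other probes of Trdn gave -0.32 and -0.23. Ryr2, the calcium release channel itself, differed by -0.87, Cacnb2, a subunit of the L-type calcium channel, by -0.92, and Casq2, the calcium store protein calsequestrin, by -0.32.

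Cacna1g, a T-type calcium channel, stood at -5.37, -5.0, -5.05 and -4.01 in month 3 samples 1 to 4, against -3.54, -2.21, -2.38, -2.20 and -3.51 in month 1 samples 1 to 5. It was well above background on 3 of 4 month 3 arrays, the groups did not overlap, and the difference was -2.09 ± 0.39 (SE, adjusted p = 0.000475). Another probe gave -1.94. Potassium channel genes that fell were Kcna1 (-1.89), Kcnv2 (-1.53), Kcnd2 (-1.40), Kcnj5 (-1.22), Kcnh2 (-0.94) and Kcnk3 (-0.55), with Kcnip2, a partner of the Kv4 channels (-1.03). Gja1, which encodes connexin 43 of the gap junctions, differed by -0.69. Kcna5 (1.08) and S100a1 (0.49) were among the rises. The list's median was -0.58 within slide 2 and -0.15 within slide 3. It was -0.07 with 2 falls without month 1 samples 2, 3 and 4, and the falls in all 3 comparisons were Pln and Cacnb2.

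Among adrenergic and cAMP genes, 5 of 26 fell and 3 rose, shares close to those of all genes. Adrb1, the beta-1 adrenergic receptor, stood at -2.40, -3.47, -3.32 and -2.59 in month 3 samples 1 to 4, against -2.18, -1.97, -1.52, -1.73 and -2.25 in month 1 samples 1 to 5. Month 3 lay below month 1 in every sample, with samples 2 and 3 the lowest. The difference was -1.01 ± 0.23 (SE, adjusted p = 0.00264), and -0.72 (adjusted p = 0.134) without month 1 samples 2, 3 and 4. Gnai2, an inhibitory G protein subunit, differed by 0.67 ± 0.13 (SE, adjusted p = 0.000799), with month 1 sample 1 not measured. The remaining falls were Akap5 (-1.90), Adra1a (-1.31), Prkar2b (-1.17) and Adcy6 (-0.42), and the remaining rises Pde5a (1.56) and Akap12 (0.81).

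Interferon-induced genes were higher in month 3. Of 37 measured, 15 rose (40.5%, against 11.8% of all genes) and none fell, with a median of 0.45. The median over members of the difference from the sham mean, taken in each sample, was 0.53 to 1.10 in month 3, against -0.05 to 0.42 in month 1. Many such genes carry an interferon-stimulated response element near their start, which is why the start-site windows of 5 of the genes that rose are shown. A motif of the interferon-stimulated response element, GAAA followed by any 2 bases and by GAAA again, searched on both strands from 250 bases before to 50 bases after each start, was found in 17 of 27 list members with a promoter in the RefSeq table (63.0%), and in 8 of the 12 of these that rose (66.7%). It was in 943 of all 27025 promoters (3.49%) and in 268 of the 9501 promoters of genes tested (2.82%). The list was chosen as interferon-induced genes, so its excess over all promoters says nothing about month 3. The share among the genes that rose was close to that of the whole list. A match is a run of letters and not a measured binding site. The windows are 60 bases each from RefSeq promoters of build GRCm38.p6, read 5′ to 3′ on the gene's own strand, with the first match in capitals (in the windows of Ifit1, Ifit3 and Trim30a it is the reverse complement, since the match is on the opposite strand).
Ifit1 (chr19:34640760-34640819, plus strand): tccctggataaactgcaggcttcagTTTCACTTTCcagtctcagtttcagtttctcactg
Ifit3 (chr19:34583348-34583407, plus strand): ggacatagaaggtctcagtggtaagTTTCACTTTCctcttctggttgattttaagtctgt
Trim30a (chr7:104465195-104465254, minus strand): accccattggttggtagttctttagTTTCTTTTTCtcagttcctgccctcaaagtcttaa
Bst2 (chr8:71537568-71537627, minus strand): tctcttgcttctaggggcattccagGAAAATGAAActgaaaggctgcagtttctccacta
Isg15 (chr4:156200862-156200921, minus strand): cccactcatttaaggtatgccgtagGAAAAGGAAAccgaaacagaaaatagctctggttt
The matches begin 104, 156, 36, 130 and 78 bases before the start, in that order.

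Ifit1, an antiviral protein that binds foreign RNA (probe at chr19:34723796-34723855 in mm9), stood at -3.68, -3.33, -3.55 and -2.69 in month 3 samples 1 to 4, against -4.17, -5.79, -5.12, -5.39 and -4.49 in month 1 samples 1 to 5. Every month 3 sample lay above every month 1 sample, and month 1 samples 1 and 5 were the highest of theirs. The difference was 1.68 ± 0.26 (SE, adjusted p = 9.47e-05), with 1.75 within slide 2 and 1.30 within slide 3, and 1.02 (adjusted p = 0.0222) without month 1 samples 2, 3 and 4. Oasl1, of the oligoadenylate synthetase-like family, stood at -3.67, -3.63, -3.79 and -2.14 in month 3 samples 1 to 4, against -4.68, -6.22, -6.02, -6.45 and -4.63 in month 1 samples 1 to 5. Month 3 sample 4 was far above the other 3, and all 4 were above month 1. The difference was 2.29 ± 0.36 (SE, adjusted p = 0.000117), but Oasl1 was well above background on only 2 of 5 month 1 arrays. Its difference without month 1 samples 2, 3 and 4 was 1.35 (adjusted p = 0.0333).

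Ifit3, a partner of Ifit1, stood at -2.60, -2.54, -2.53 and -1.59 in month 3 samples 1 to 4, against -3.20, -3.79, -3.88, -4.39 and -3.03 in month 1 samples 1 to 5. Again no values overlapped and month 3 sample 4 was the highest, and the difference was 1.34 ± 0.24 (SE, adjusted p = 0.000429). Bst2, or tetherin, which holds budding virus at the cell surface, stood at -1.48, -1.44, -1.44 and -0.72 in month 3 samples 1 to 4, against -1.89, -1.93, -1.62, -1.70 and -1.95 in month 1 samples 1 to 5. It lay higher in each month 3 sample than in any month 1 sample, by a small margin in samples 1, 2 and 3. The difference was 0.55 ± 0.14 (SE, adjusted p = 0.00584), and 0.65 (adjusted p = 0.0383) without month 1 samples 2, 3 and 4, so that Ifit1, Oasl1 and Bst2 were the members that rose in all 3 comparisons. Trim30a, a regulator of innate immune signalling, differed by 0.81 ± 0.19 (SE, adjusted p = 0.00285) and by 0.34 (adjusted p = 0.285) without those 3 samples. Further rises were Usp18 (1.58), which removes the ubiquitin-like protein ISG15 from its targets, Ifit2 (1.41), Isg15 itself (1.02), Zbp1 (0.97), Gbp3 (0.81), Gbp4 (0.76) and Stat2 (0.47). The list's median was 0.50 within slide 2 and 0.31 within slide 3, 13 of the 37 rose with slide as a block, and 7 with the near-coinciding arrays averaged (4.34% of all genes rose in that comparison).

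In antigen presentation by class I molecules, 6 of 17 genes rose (35.3%) and none fell, with a median of 0.34. With the near-coinciding arrays averaged 1 rose, and 9 rose without month 3 sample 1. Without month 1 samples 1 and 5 there were 5 rises and 2 falls, and without samples 2, 3 and 4 there were 2 rises and 0 falls. H2-K1, a class I heavy chain, stood at 2.30, 2.97, 2.93 and 2.81 in month 3 samples 1 to 4, against 1.95, 2.30, 1.88, 1.87 and 2.07 in month 1 samples 1 to 5. Month 3 sample 1 was at the level of month 1 sample 2 and the other 3 were above all of month 1. The difference was 0.74 ± 0.15 (SE, adjusted p = 0.000944), with 0.29 within slide 2 and 0.83 within slide 3, and another probe gave 0.77. Class I heavy chain genes are close relatives, so their probes may share signal. B2m, the light chain of class I molecules, stood at 2.37, 2.61, 2.64 and 2.35 in month 3 samples 1 to 4, against 2.14, 2.03, 1.84, 1.77 and 2.17 in month 1 samples 1 to 5. Month 3 lay above month 1 throughout, and the difference was 0.51 ± 0.13 (SE, adjusted p = 0.00633). Tap2, a subunit of the peptide transporter TAP, differed by 0.42 ± 0.10 (SE, adjusted p = 0.00365), and by 0.54 (adjusted p = 0.0166) without month 1 samples 2, 3 and 4. The others were H2-D1 (0.61) and the immunoproteasome subunits Psmb10 (0.53) and Psmb9 (0.42). The list's median was -0.03 within slide 2 and 0.37 within slide 3.

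Markers of mast cells were higher in month 3. Hdc, which makes histamine, stood at -2.89, -2.22, -2.34 and -1.99 in month 3 samples 1 to 4, against -4.14, -4.18, -3.66, -4.24 and -4.07 in month 1 samples 1 to 5. All month 3 samples lay well above all month 1 samples. The difference was 1.70 ± 0.21 (SE, adjusted p = 1.07e-05), with 1.13 within slide 2 and 1.89 within slide 3, and it was 1.66 (adjusted p = 0.000103) and 1.75 (adjusted p = 0.00133) without either part of month 1. Tpsb2, a mast cell tryptase, stood at -3.72, -3.25, -3.09 and -3.31 in month 3 samples 1 to 4, against -4.19, -4.77, -4.37, -4.60 and -3.87 in month 1 samples 1 to 5, again without overlap. The difference was 1.02 ± 0.17 (SE, adjusted p = 0.000141), while its other probe, not above background on any of the 9 arrays, gave -0.08. These were the 2 of 4 measured mast cell markers that rose, and the log2 summed level of the 4 was -1.15 to -0.59 in month 3, against -1.88 to -1.47 in month 1 and -2.07 to -1.42 in sham.

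Itgam, the CD11b integrin of myeloid cells, stood at 2.40, 3.65, 3.93 and 3.54 in month 3 samples 1 to 4, against 1.55, 1.22, 1.82, 1.58 and 1.46 in month 1 samples 1 to 5. Month 3 sample 1 was above month 1 but below the other 3 of its group. The difference was 1.85 ± 0.25 (SE, adjusted p = 1.93e-05), and the other probes, above background on 2 and 3 of the month 3 arrays, gave 0.95 and 0.53. Those probes were far dimmer, with month 3 means of -5.45 and -5.33, against 3.38 for the probe used. Whether the bright probe reports Itgam alone was not tested. Csf3r, the receptor for the neutrophil growth factor G-CSF, stood at 3.17, 4.48, 4.17 and 4.10 in month 3 samples 1 to 4, against 2.32, 3.09, 3.11 and 2.57 in month 1 samples 2 to 5, with month 1 sample 1 lost to the damaged area. The difference was 1.21 ± 0.24 (SE, adjusted p = 0.00116), with 0.33 within slide 2 and 1.68 within slide 3. Of 22 macrophage and monocyte markers 3 rose, Itgam, Clec4n (1.02) and Cd14 (0.55), a share of 13.6% that is near that of all genes, and their median was 0.06. S100a8, a calprotectin subunit of neutrophils, stood at -2.99, -2.85, -2.87 and -5.05 in month 3 samples 1 to 4, against -5.11, -4.68, -3.13, -4.31 and -4.92 in month 1 samples 1 to 5. Month 3 samples 1, 2 and 3 were above month 1 and sample 4 was not, and the difference of 0.99 ± 0.53 (SE, adjusted p = 0.167) did not pass the test.

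Endothelial markers were higher, with 8 of 20 rises (40.0%), 1 fall and a median of 0.48. Their log2 summed level was 5.76 to 6.19 in month 3, against 5.45 to 5.62 in month 1, 5.44 to 5.52 in month 2 and 5.58 to 5.83 in sham. Esam, an adhesion molecule of endothelial junctions, stood at 0.28, 0.69, 0.80 and 1.12 in month 3 samples 1 to 4, against -0.07, -0.10, -0.26, -0.31 and 0.14 in month 1 samples 1 to 5. Each month 3 sample was above each month 1 sample, and month 3 sample 4 was the highest. The difference was 0.84 ± 0.15 (SE, adjusted p = 0.000319), with 0.51 within slide 2 and 0.73 within slide 3. Icam2 differed by 0.65 ± 0.12 (SE, adjusted p = 0.000534) and Flt1, a receptor for VEGF, by 0.49 ± 0.11 (SE, adjusted p = 0.0017), both without overlap. Sox17 (1.17), Eng (0.62), Cdh5 (0.56), Egfl7 (0.52) and Fabp4 (0.46) also rose. Aqp1, the water channel, was the 1 that fell (-1.26). Of the list 10 rose without month 1 samples 1 and 5, 2 without samples 2, 3 and 4, and 4 with the near-coinciding arrays averaged. Esam and Fabp4 rose in all 3 comparisons, and the list's median was 0.38 within each of slides 2 and 3.

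In the TGF-beta and BMP pathway, 6 of 38 genes rose (15.8%, against 11.8% of all genes) and 4 fell (10.5%, against 17.0%). The list thus held no clear excess of calls. Its receptor genes Bmpr2 and Bmpr1a, named for their small p-values, moved in opposite directions. Bmpr2, the type II BMP receptor, stood at -1.10, -0.59, -0.88 and -1.0 in month 3 samples 1 to 4, against -1.69, -1.62, -1.28, -1.38 and -1.44 in month 1 samples 1 to 5. All month 3 samples lay above all month 1 samples, and the difference was 0.59 ± 0.12 (SE, adjusted p = 0.00129). Bmpr1a, a type I receptor of the same pathway, stood at -1.42, -2.11, -2.16 and -1.84 in month 3 samples 1 to 4, against -1.19, -1.20, -1.32, -1.32 and -1.07 in month 1 samples 1 to 5. All month 3 samples lay below month 1, with sample 1 close to it, and the difference was -0.66 ± 0.14 (SE, adjusted p = 0.00116). Both held without either part of month 1. Within slide 2, where month 3 is sample 1 alone, they were 0.33 and -0.14. The BMP-induced genes Smad6 (0.95) and Id1 (0.69) and the co-receptor Eng rose, while the signal carriers Smad3 (-0.50) and Smad5 (-0.40) and the activin antagonist Fst (-0.70) fell. Tgfb1 stood at -3.25 to -2.64 in month 3, against -3.33 to -2.84 in month 1, and its difference of 0.09 ± 0.16 (SE, adjusted p = 0.696) did not pass.

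Of 33 genes of apoptosis, p53 targets and senescence, 8 rose (24.2%, or 5 genes without month 1 sample 2 or sample 3) and 2 fell, with a median of 0.27 that was -0.10 without month 1 samples 2, 3 and 4. Cdkn1a, the cell cycle inhibitor p21, stood at -1.49, -0.43, -0.54 and -1.31 in month 3 samples 1 to 4, against -1.84, -3.44, -3.11, -2.0 and -2.06 in month 1 samples 1 to 5. No values overlapped, and month 3 samples 2 and 3 were the highest. The difference was 1.55 ± 0.31 (SE, adjusted p = 0.00109), and 1.01 (adjusted p = 0.0655) without month 1 samples 2, 3 and 4. Bax, which opens the outer mitochondrial membrane in apoptosis, stood at -1.11, -1.05, -0.80 and -0.60 in month 3 samples 1 to 4, against -1.56, -2.46, -1.71, -1.85 and -1.43 in month 1 samples 1 to 5. Month 1 sample 2 was the lowest of the 9 and all month 3 samples were above month 1. The difference was 0.92 ± 0.15 (SE, adjusted p = 0.000164), and 0.61 (adjusted p = 0.0148) without those samples. Bnip3 (0.76), Fas (0.64), Casp4 (0.62), Bcl2l1 (0.61), Bak1 (0.61) and Sesn2 (0.49) rose, and Gadd45a (-0.76) and the p53 target Ccng1 (-0.63) fell.

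Of 34 lysosomal genes 6 rose and 4 fell, but 1 fell without any 1 of month 1 samples 3 and 4 and month 3 samples 3 and 4, 2 fell without month 1 sample 2 or month 3 sample 2, and 0 fell with slide as a block. Lipa, the lysosomal acid lipase, lay at -0.21 to 0.00 in month 3, against -1.15 to -0.56 in month 1. The difference was 0.81 ± 0.12 (SE, adjusted p = 7.14e-05), with 0.95 within slide 2 and 0.56 within slide 3, and it passed in all 3 comparisons. Ctsd, the protease cathepsin D, differed by 0.60 ± 0.14 (SE, adjusted p = 0.00361), but its other probe gave -0.40. Likewise Cat, or catalase, differed by 1.07 ± 0.14 (SE, adjusted p = 2.19e-05) on the probe used and by -0.56 on its other probe, both well above background on all 9 arrays. The sign of the difference thus depended on the probe for both genes. Among further oxidative stress genes, Nox4 (2.16) and Mt2, a metallothionein (1.33), rose, and other probes of these genes are not reported here.

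Dbp, a transcription factor whose level follows the circadian clock, stood at 1.47, 1.07, 1.33 and 2.12 in month 3 samples 1 to 4, against 2.67, 2.82, 2.85, 2.55 and 2.32 in month 1 samples 1 to 5. The groups did not overlap, and the difference was -1.14 ± 0.20 (SE, adjusted p = 0.00036), with -0.96 on another probe. Nr1d1, the clock repressor REV-ERB alpha, differed by -0.46 ± 0.16 (SE, adjusted p = 0.0336), a call lost without month 1 sample 2 or 3 or month 3 sample 1, 2 or 4 (up to 0.0847). Of 22 clock genes, 3 fell and 1 rose, with a median of -0.01, and the labels give no hour of sampling. Pparg, the nuclear receptor of fat storage also found in endothelium and macrophages, stood at -0.91, -0.5, -0.39 and -0.68 in month 3 samples 1 to 4, against -1.38, -1.47, -1.28, -1.57 and -1.34 in month 1 samples 1 to 5. No values overlapped, and the difference was 0.78 ± 0.12 (SE, adjusted p = 8.03e-05), and 0.74 (adjusted p = 0.0106) without month 1 samples 2, 3 and 4.

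Of the genes usually read as signs of load, Myh7, Nppb, Gdf15, Nppa, Ankrd1, Acta1 and Myh6 did not pass the test with all 9 samples. Cdkn1a (1.55) and Sfrp1 (0.53), of the same fixed set of load genes, did pass. Myh7 differed by 1.69 ± 0.89 (SE, adjusted p = 0.154), Nppb by 2.14 ± 0.99 (SE, adjusted p = 0.108) and Gdf15 by 2.59 ± 1.52 (SE, adjusted p = 0.204). Nppa, the atrial natriuretic peptide, stood at 5.62, 4.99, 4.91 and 5.69 in month 3 samples 1 to 4, against 5.63, 5.34, 3.46, 0.61 and 5.16 in month 1 samples 1 to 5, and month 1 sample 4 was far below all the others. Ankrd1, a stretch-responsive sarcomere protein, stood at 5.13, 4.45, 4.65 and 4.58 in month 3 samples 1 to 4, against 4.97, 3.05, 2.56, 1.90 and 4.49 in month 1 samples 1 to 5, with a difference of 1.31 ± 0.55 (SE, adjusted p = 0.076). Without month 1 samples 1 and 5, Myh7 differed by 2.93 (adjusted p = 0.0161), Nppb by 3.68 (adjusted p = 0.0057) and Ankrd1 by 2.20 (adjusted p = 0.00279). Without samples 2, 3 and 4 the same genes differed by -0.16 (adjusted p = 0.943), -0.17 (adjusted p = 0.938) and -0.02 (adjusted p = 0.985). Acta1, skeletal actin of the fetal heart, differed by 0.58 ± 0.93 (SE, adjusted p = 0.673), and Myh6, the fast adult myosin, by 0.73 ± 0.44 (SE, adjusted p = 0.218). In the list of natriuretic peptides and fetal genes 3 of 21 rose (14.3%) and 2 fell, which is close to the shares of all genes. In that list 1 rose without month 3 sample 4 and 5 without month 1 sample 1. Its rises include those of Cdkn1a and Fhl1 (0.85). Its falls include that of Myl7, the atrial myosin light chain described below.

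Matrix genes showed the same division of month 1. Postn, or periostin, made by activated fibroblasts, stood at 0.26, -0.22, -0.46 and 0.72 in month 3 samples 1 to 4, against -0.09, -2.24, -3.23, -2.45 and 0.02 in month 1 samples 1 to 5. Month 1 samples 1 and 5 lay among the month 3 samples and the other 3 below, and the difference of 1.67 ± 0.66 (SE, adjusted p = 0.0612) did not pass. Col1a1, of the main fibrillar collagen, stood at 2.19, 0.37, 0.53 and 2.35 in month 3 samples 1 to 4, against 2.25, 1.29, 0.87, 1.5 and 2.20 in month 1 samples 1 to 5, with month 3 samples 2 and 3 the lowest of all 9. Its difference was -0.26 ± 0.41 (SE, adjusted p = 0.665), and that of Col3a1 was -0.47 ± 0.41 (SE, adjusted p = 0.399). None of 17 collagens passed in either direction in limma's test with all 9 samples, and 0 had an unadjusted p below 0.05,
while 2 rose without month 1 samples 1 and 5. Fbln2, or fibulin 2, a glycoprotein of elastic fibres and basement membranes, stood at 1.84, 1.59, 1.77 and 2.07 in month 3 samples 1 to 4, against 1.08, 0.32, 0.33, 0.42 and 1.17 in month 1 samples 1 to 5. All month 3 samples were above all month 1 samples, and the difference was 1.16 ± 0.19 (SE, adjusted p = 0.000152), and 0.69 (adjusted p = 0.0438) without month 1 samples 2, 3 and 4. Ltbp2 (2.34) and Ccn2, a fibroblast growth signal (1.31), rose with it, and Sfrp1, a secreted Wnt antagonist, differed by 0.53 ± 0.18 (SE, adjusted p = 0.029), a call lost without month 1 sample 2 or 3 or month 3 sample 1 or 4 (up to 0.11). Of the matrix glycoproteins 4 of 32 rose with all samples, 1 without month 1 sample 2 or sample 3, 10 without sample 1 or sample 5, and 18 without samples 1 and 5 together, and the median of 0.59 turned to -0.27 without samples 2, 3 and 4. Tgm2, a transglutaminase that links matrix proteins, differed by 0.83 ± 0.21 (SE, adjusted p = 0.00542), with 0.72 on another probe.

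Fibroblast markers showed 3 falls among 16 (18.8%, close to the 17.0% of all genes) and no rise. The falls were 1 with only the 9 arrays of both months and 0 with the near-coinciding arrays averaged. Dpt, or dermatopontin, stood at -0.62, -3.94, -3.65 and -0.98 in month 3 samples 1 to 4, against -0.31, -0.16, -0.79, -0.57 and -0.24 in month 1 samples 1 to 5. Month 3 samples 2 and 3 were low and samples 1 and 4 were within or close to month 1, and the difference was -1.89 ± 0.48 (SE, adjusted p = 0.00603). Tcf21, a transcription factor of resident cardiac fibroblasts, stood at -2.12, -2.79, -2.93 and -2.64 in month 3 samples 1 to 4, against -1.80, -1.55, -1.81, -1.70 and -1.89 in month 1 samples 1 to 5, without overlap, and the difference was -0.87 ± 0.23 (SE, adjusted p = 0.007). The log2 summed level of 15 fibroblast markers was 5.69 to 6.08 in month 3, against 5.54 to 6.08 in month 1.

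The largest falls were in genes that ventricular muscle hardly makes. Myl7, the atrial myosin light chain, stood at -7.07, -7.21, -7.28 and -5.93 in month 3 samples 1 to 4, against 0.34, 2.18, -0.49, -3.84 and 0.41 in month 1 samples 1 to 5. It was above background on 1 of 4 month 3 arrays, and month 1 ranged widely, with sample 4 the lowest and sample 2 the highest. The difference was -6.59 ± 2.22 (SE, adjusted p = 0.0296). Sln, or sarcolipin, an atrial inhibitor of the calcium pump, stood at -4.63, -4.73, -6.13 and -2.93 in month 3 samples 1 to 4, against 2.70, 4.02, 1.40, -2.33 and 2.71 in month 1 samples 1 to 5, with the same samples lowest and highest in month 1. The difference was -6.30 ± 2.10 (SE, adjusted p = 0.0284). Myl4, another atrial light chain, differed by -4.56 ± 1.68 (SE, adjusted p = 0.045). The calls of Myl7 and Sln were lost without any 1 of month 1 sample 2, month 3 sample 2 or month 3 sample 3 (adjusted p up to 0.0706 and 0.0806), and that of Myl4 without any 1 of the 9 except month 1 sample 4 (up to 0.105). In the shams Myl7 lay at 3.47 to 3.53 in 3 samples and at -7.90 to -3.60 in the other 7. Of 12 atrial markers 4 fell and none rose, 0 fell without any 1 of those 3 samples, and their log2 summed level, which includes Nppa, was 5.42 to 6.07 in month 3, against 4.54 to 6.82 in month 1. The share of atrial tissue in each sample was not tested.

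Genes of the mesothelial lining were the other large falls. Msln, or mesothelin, stood at -6.69, -7.46, -5.53 and -4.06 in month 3 samples 1 to 4, against -2.36, -0.42, -0.36, 0.97 and -2.39 in month 1 samples 1 to 5. No values overlapped, and Msln was above background on 1 of 4 month 3 arrays and all 5 of month 1. The difference was -5.02 ± 0.98 (SE, adjusted p = 0.000776), with -6.75 within slide 2 and -3.29 within slide 3, and -3.56 (adjusted p = 0.0806) without month 1 samples 2, 3 and 4. Muc16, a mucin of that lining, also above background on 1 of 4 month 3 arrays, differed by -4.08 ± 1.07 (SE, adjusted p = 0.00727). Upk3b, an uroplakin of mesothelium, was above background on none of the 4 month 3 arrays and on all 4 measured month 1 arrays, and it was at least 5.37-fold lower in month 3 (adjusted p = 0.0215). Lrrn4, on none of the 4 and on all 5, was at least 2.27-fold lower (adjusted p = 0.0485). Without month 1 sample 2, 3 or 4 or month 3 sample 4, each left out alone, neither passed (up to 0.0571 for Upk3b and 0.119 for Lrrn4), and Lrrn4 passed in no case without 1 of the month 3 samples. Aldh1a2, the retinoic acid enzyme of epicardium, stood at -3.88, -4.56, -4.41 and -4.12 in month 3 samples 1 to 4, against -3.78, -1.78, -1.61, -1.24 and -3.75 in month 1 samples 1 to 5. Month 1 samples 2, 3 and 4 were high and samples 1 and 5 were just above the month 3 range, so that the difference was -1.81 ± 0.46 (SE, adjusted p = 0.00591) with all samples and -0.47 (adjusted p = 0.5) without samples 2, 3 and 4. Of 11 markers 5 fell, or 3 without any 1 of those 4 samples, and the log2 summed level of 10 of them was 2.38 to 3.15 in month 3, against 2.40 to 2.88 in month 1. Rspo1 (-3.27), Nkain4 (-3.66), Cyp2s1 (-3.01) and Dmkn (-3.01) were among the 15 largest falls too, each well above background on all 5 month 1 arrays and on 1 or 2 month 3 arrays. Ccl11, or eotaxin, above background on 1 of 4 month 3 arrays, stood at -7.99, -6.31, -7.23 and -6.43 in month 3 samples 1 to 4, against -6.51, -2.82, -3.03, -3.01 and -6.29 in month 1 samples 1 to 5, with the high values again in month 1 samples 2, 3 and 4, and its difference of -2.66 ± 0.81 (SE, adjusted p = 0.0173) was not called without month 1 sample 2 (0.0525) or sample 4. The call of Dmkn rested on 7 of the 9 samples in the same way (up to 0.121, without month 1 sample 4).

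**Figure D4:**
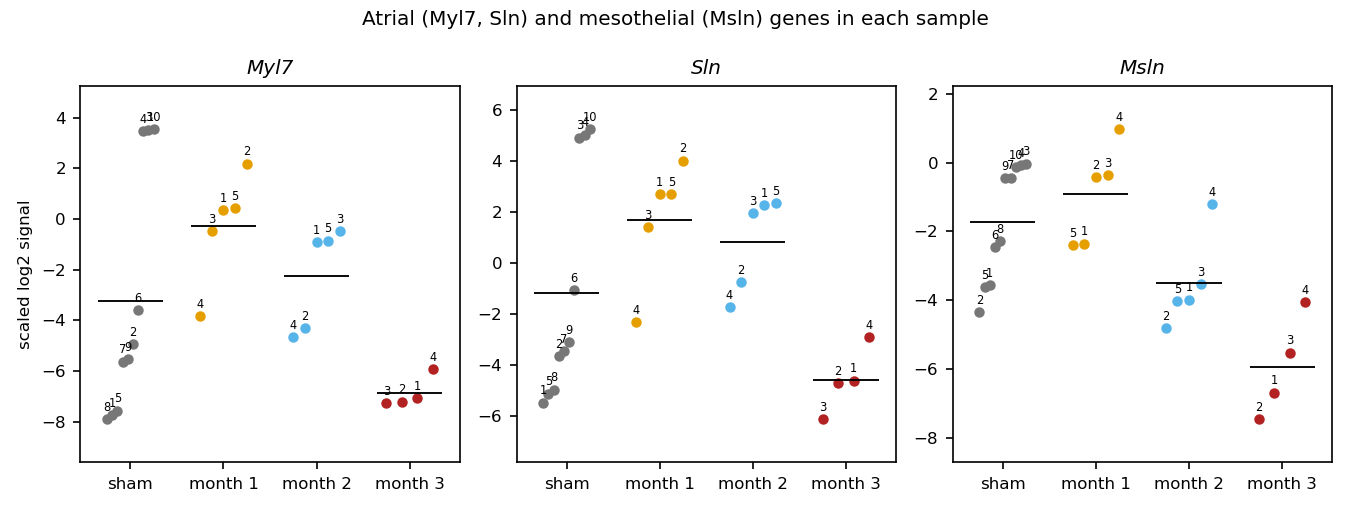
Scaled log2 signal of the atrial genes Myl7 and Sln and the mesothelial gene Msln in each of the 24 samples by group, from sham to month 3; points are samples with their number and lines are group means. The month 3 samples are below the month 1 samples for all 3 genes, and the shams span more than the distance between the months for Myl7 and Sln.

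Of 6 platelet markers 3 fell and none rose, while 1 fell without any 1 of month 1 samples 3 and 5 and month 3 samples 2, 3 and 4, and 0 with the near-coinciding arrays averaged. Month 1 sample 2 lay as low as the month 3 samples, since the median over members of the difference from the sham mean was -1.03 to 0.44 in month 3, against -1.04 in that sample and 0.13 to 2.38 in the other month 1 samples. Ppbp, a chemokine stored in platelets, stood at -1.57, -4.27, -4.10 and -3.48 in month 3 samples 1 to 4, against -0.02, -2.93, 1.16, -1.37 and -0.11 in month 1 samples 1 to 5. Month 3 sample 1 lay among the month 1 values. The difference was -2.70 ± 0.74 (SE, adjusted p = 0.00957), with -0.52 within slide 2 and -3.84 within slide 3. Clec1b, a platelet receptor, differed by -1.96 ± 0.65 (SE, adjusted p = 0.0268), and Gp9, of the receptor for von Willebrand factor, by -2.04 ± 0.75 (SE, adjusted p = 0.0444), and both lost the call without any 1 of month 1 samples 3 and 5 and month 3 samples 2, 3 and 4 (up to 0.0857 and 0.132), and that of Gp9 also without month 1 sample 1 or 4. The log2 summed level of 5 platelet markers was 0.47 to 1.46 in month 3, against 0.80 to 2.93 in month 1. Of 7 markers of fat cells 2 rose (Pparg and Fabp4, which endothelium also makes) and 1 fell, with a median difference of -0.68. The log2 summed level of 6 of them was 4.38 to 4.82 in month 3, against 4.09 to 4.43 in month 1. Fabp4 alone had means of 4.61 and 4.15, inside those ranges, so the sum says little of the other markers. The 1 that fell was Cfd, or adipsin, which stood at -3.0, -4.24, -4.46 and -5.86 in month 3 samples 1 to 4, against -1.09, -0.27, -1.19, -2.97 and -1.26 in month 1 samples 1 to 5. The groups were apart by a small margin, between month 3 sample 1 and month 1 sample 4, and the difference was -3.03 ± 0.96 (SE, adjusted p = 0.0213), not called without month 1 sample 2 or month 3 sample 4 (up to 0.078). The amount of blood or fat in the samples was not tested.

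The largest rises had few independent probes behind them. Of the 15 genes that rose most, 9 had another probe on the array, and these gave differences of -0.51 to 2.21 with a median of 0.10. Only 1 of the 9 other probes was above background on all 4 month 3 arrays, that of Ulk3, and it gave 0.10 where the probe used gave 2.77. The Ulk3 probe used is placed on chromosome 15 in the file, while the gene lies on chromosome 9. Pign, an enzyme of the GPI anchor pathway, stood at -0.56, 0.77, 1.27 and 1.18 in month 3 samples 1 to 4, against -2.30, -2.54, -2.41, -2.50 and -2.15 in month 1 samples 1 to 5 on the probe used, which differed by 3.04 ± 0.30 (SE, adjusted p = 5.57e-07), and its other probe gave -0.05. Month 3 sample 1 was the lowest of its group for Pign, and likewise for Pgbd1 (3.51), Sfi1 (3.50), Acot3 (3.43), Fmn2 (3.16), Slc35e2 (3.20), Mcm8 (3.18), Tssk5 (3.08) and Rsph4a (3.05). In month 1, probes were above background on 1 of 5 arrays for Pgbd1, Acot3, Mcm8 and Rsph4a and on 2 of 5 for Sfi1 and Tssk5. These differences are thus set partly against dim signal, and none of these genes passed the filter through month 1. Whether month 2 or sham also kept them is not reported here, and a gene kept through month 3 alone had to be higher there. With a filter on all 9 arrays, rises of at least 2-fold numbered 273 in place of 483. Proz, which encodes protein Z, a clotting cofactor, was above background on all 4 month 3 arrays, on none of month 1 or month 2 and on 1 of 10 sham arrays. It passed the filter through month 3 alone and so had to be higher there. It was at least 2.99-fold higher (adjusted p = 1.07e-05), while its other probe was above background on no array of either month. The probes of 6 of these 15 genes hold 5 or more TG units in a row on either strand, which 142 of the 12338 probes used hold (1.15%), and 52 of those 142 rose (36.6%, against 11.8% of all genes). Of 201 genes with plain symbols whose month 3 mean was at least 2-fold above the means of month 1, month 2 and sham, 36 had the repeat (17.9%). The part of the repeat in these rises was not tested. Over all genes with plain symbols that passed, the largest changes included, further probes mostly went the same way. Of 274 further probes of genes that rose, above background on all 9 arrays, 214 were higher in month 3, and of 384 of genes that fell, 302 were lower. For changes of at least 2-fold these numbers were 31 of 37 for rises and 8 of 10 for falls. For the 201 genes named above they were 16 of 22.

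**Figure D5:**
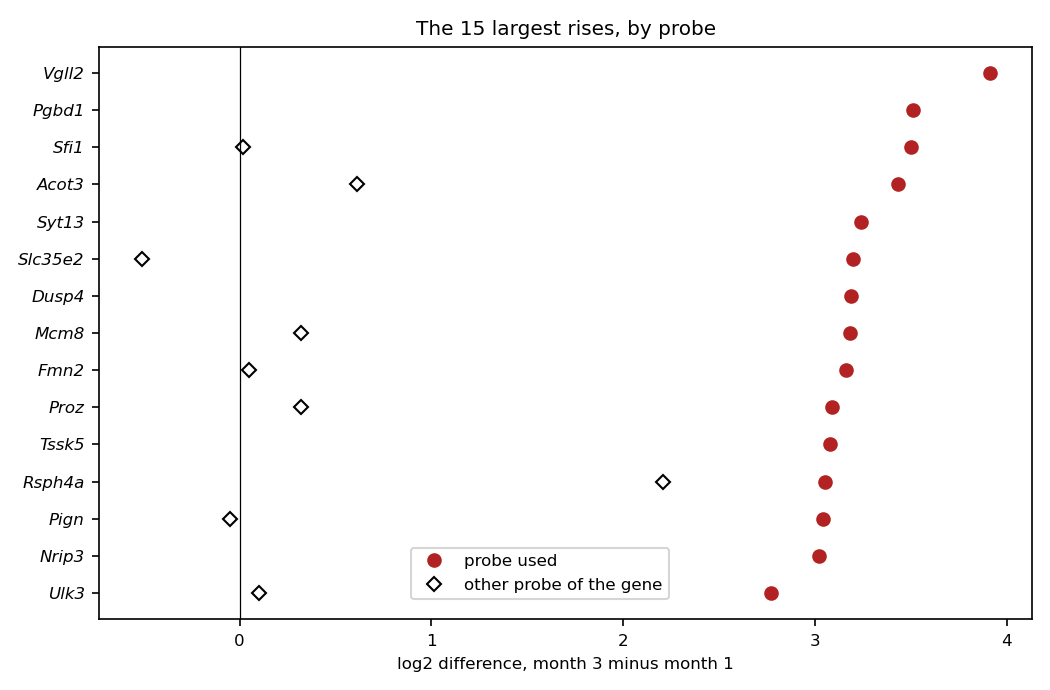
Log2 difference (month 3 minus month 1) of the 15 genes with the largest rises; red circles are the probe used and open diamonds another probe of the same gene, where the array holds one. The 9 other probes lie between -0.51 and 2.21.

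The exceptions among these 15 were Dusp4, Syt13, Nrip3 and Vgll2, whose month 2 means were above their month 1 means as well, a difference that was not tested. Dusp4, a phosphatase that switches off MAP kinases, stood at -3.53, -3.31, -3.15 and -4.12 in month 3 samples 1 to 4, against -5.73, -6.69, -7.96, -7.71 and -5.48 in month 1 samples 1 to 5. The month 3 samples were all above month 1, where samples 1 and 5 were the highest. The difference was 3.19 ± 0.47 (SE, adjusted p = 6.44e-05), and 2.08 (adjusted p = 0.0161) without month 1 samples 2, 3 and 4, and its mean was -6.44 ± 0.78 in sham and -4.96 ± 0.19 in month 2 (SD, n = 10 and 5). Syt13, of the synaptotagmin family, differed by 3.24 ± 0.80 (SE, adjusted p = 0.00513) and Nrip3 by 3.02 ± 0.73 (SE, adjusted p = 0.0044), and by 1.5 (adjusted p = 0.311) and 1.37 (adjusted p = 0.31) without those 3 samples. Vgll2, a cofactor of TEAD transcription factors, stood at -0.22, -2.18, -1.98 and -0.31 in month 3 samples 1 to 4, against -1.97, -6.25, -7.32, -7.88 and -2.0 in month 1 samples 1 to 5, with month 1 samples 1 and 5 inside the month 3 range, and its difference of 3.91 ± 1.25 (SE, adjusted p = 0.0228) was not called without month 1 sample 2, 3 or 4 or month 3 sample 4 (up to 0.0692). All 4 genes were above background on 4 month 3 arrays and on 2 of 5 in month 1, so they too did not pass the filter through month 1. Snap25, a SNARE protein of neurons, differed by 2.07 ± 0.29 (SE, adjusted p = 4.22e-05), and Hmmr, a spindle protein, by 1.47 ± 0.19 (SE, adjusted p = 1.25e-05), both with month 3 sample 1 the lowest of its group. Cenpa, the histone variant of centromeres, fell by 0.86 on the log2 scale, without overlap (adjusted p = 6.76e-05), and the list of 32 cell cycle genes held 4 rises and 2 falls.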

How the data were processed

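Total RNA of right ventricles was extracted with a Qiagen RNeasy kit, and 0.5 ug per sample was labelled with Cy3, per the labels' protocols. The scanner output, from Agilent Feature Extraction 10.7.3.1 per the submitters' processing notes, gives intensity per spot, background subtracted and detrended within each array and not scaled between arrays, per the file headers. No later step is given in the sources used here. Control and outlier spots were left out, as were 2651 spots in damaged areas of month 1 sample 1 and 1678 on sham sample 1. From each array's log2 signal its 75th percentile was subtracted, taken over the 15794 probes detected on all 24 arrays, because under 50% of probes were detected on 22 arrays. A probe was kept (21062 of 55681) if some group had it well above background throughout. Symbols came from RefSeq tables of GRCm38.p6, and the brightest kept probe stood for its gene. limma 3.58.1 (R 4.3.3) fitted 4 group means, with two-sided tests and Benjamini-Hochberg adjustment over 12338 genes, and was tested on simulated data. The number of arrays limits the precision. Members and gene lists were chosen with earlier results of these data known. Named genes are the 15 largest changes each way, up to 3 of each list with the smallest p, and a fixed set of load genes. Members given by their difference alone were picked after their values were seen. Genes on chromosome Y, in multicopy families or without a plain symbol are not described. Some list members that passed the test are not reported here. Same-numbered samples of the months had correlated deviations of 0.097, -0.087, 0.337 and -0.364, so the numbers were not taken as pairs. The alternatives were other scalings, background corrections, filters, probe rules, sample sets, variance models and slide terms, single samples left out, and the deposited table, whose intensity values equal the scanner's net signal.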

Additional observations from a re-analysis of the deposited data

Results flagged for a closer look

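In 15 of 198 groups of samples checked over part of the named genes, 1 sample stood far from the others of its month. Chance gives such a result in about 1 in 20 groups. Month 3 sample 4 was that sample in 9 cases. It was high among the interferon genes, at -2.14 for Oasl1 (the others -3.79 to -3.63), -1.59 for Ifit3 (-2.60 to -2.53) and -0.72 for Bst2 (-1.48 to -1.44). It was high too for the atrial genes Myl7, at -5.93 (-7.28 to -7.07), and Myl4, at -0.31 (-2.11 to -1.87). It was low for the mitochondrial genes Dld, at -0.01 (0.78 to 0.90), and Prdx3, at 1.02 (1.36 to 1.42), and for S100a8, at -5.05 (-2.99 to -2.85), and Tgm2, at 2.71 (3.00 to 3.05). This array also had the largest share of probes above background, 56.11%.

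Month 3 sample 1 stood apart in 3 cases. It was high for the platelet genes Clec1b, at -2.97 (the others -5.19 to -4.88), and Gp9, at -2.73 (-5.09 to -4.78), and for Trdn, at 0.82 (0.24 to 0.28). In month 1, sample 5 was low for Trdn, at 0.99 (1.86 to 1.92), and for Upk3b, at -5.84 (-2.94 to -2.67), where sample 1 was not measured. Month 1 sample 3 was high for Hdc, at -3.66 (-4.24 to -4.07).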

How the results depend on the processing

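The count of changed genes, 3561 in the report, was 2299 after normexp, 2263 in the deposited table, 1878 with only the 9 arrays of both months, 5583 with array weights, 2191 with a slide block, 1190 for slide 2 alone, 84 for slide 3 alone, 1118 with near-coinciding arrays averaged and 885 without month 1 samples 2, 3 and 4. The count at least 2-fold, 713 in the report, was 304 after normexp, 304 in the deposited table, 1121 without a filter, 393 with a filter on all 9 arrays, 1237 with array weights, 453 with a slide block, 84 for slide 3 alone, 430 with arrays averaged and 312 without month 1 samples 2, 3 and 4. Leaving out single samples gave 2470 to 4470 changed genes and 550 to 1072 at least 2-fold, the highest without month 3 sample 1. The replicate block, for numbers that did not pair the samples, gave 413 and 351. Leaving out parts of month 1 and keeping the spots in damaged areas were chosen after seeing the data. Calls higher were 41.0% of all in the report, 22.7% with the percentile over all probes, 30.3% after quantile normalization, 52.8% after normexp and 55.1% in the deposited table. The checks of single genes covered only 99 of the genes named, and 87 of those 99 passed the test. Over 2941 values of these genes under the alternatives, 382 lost the call and 23 gained it. A further 20 changed sign, all of genes that passed neither in the report nor there. Without month 1 samples 2, 3 and 4 these were Myh7 (-0.16), Nppb (-0.17), Nppa (-0.09), Gdf15 (-0.90), Acta1 (-1.18) and Ankrd1 (-0.02). For slide 3 alone they were Nppb (-0.08), Gdf15 (-1.44), Acta1 (-1.42) and Postn (-0.01), and for slide 2 alone Myh6 (-0.76), Col1a1 (0.97), Col3a1 (0.62) and Tgfb1 (-0.26). Col1a1 was 0.10 with arrays averaged, 0.14 without month 1 samples 1 and 5, and -0.59 to 0.07 with single samples left out, above 0 without month 3 sample 2 or 3. Tgfb1 was -0.03 with the percentile over all probes and -0.01 (without month 3 sample 4) to 0.19 with single samples left out. Of the 87, 36 passed for slide 2 alone, 11 for slide 3 alone, 59 with arrays averaged, 37 with the replicate block and 45 without month 1 samples 2, 3 and 4. Those fits hold fewer samples, and other causes of the losses were not tested. Dim signal limits genes such as Oasl1 in month 1 and Upk3b and Lrrn4 in month 3, which were above background on few or none of those arrays.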
